A study of Homo sapiens with 2 samples.

Results

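The aminoacyl-tRNA synthetases are the enzymes that join each amino acid to its transfer RNA. They were taken by symbol, as genes named with 1 letter and ARS, with or without a final 1 or 2, together with EPRS1, FARSA and FARSB. The rule uses symbols and no measured value. It gave 32 genes of the 19775 with a value, of which 15 with symbols ending in 2 are mitochondrial and 17 are cytoplasmic or shared. They were read by 67 of the array's 54675 probe sets. MARS1, QARS1 and TARS2 are not among them because their probe sets also list a microRNA gene. TARS3 is not, because its symbol ends in 3, and it is counted below with the accessory factors.

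RNA came from MKN28, an established human gastric adenocarcinoma line that is listed as a misidentified derivative of the gastric line MKN74. One sample, MKN28-Sox2, was from cells labelled as overexpressing Sox2, which encodes a factor that keeps stem cells undifferentiated and patterns the foregut, after lentiviral infection and puromycin selection. The other, MKN28-NC, is labelled control, with no vector stated for it. Both were read on 1 Affymetrix array each, so there were no replicates and no test between the conditions was possible. The differences given are those of 1 array from the other, without an error from repeated cultures.

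The labels do not say whether the Sox2 cells were a pool or a clone. The probe set of SOX2 with the highest level read 172 in the Sox2 array and 123 in the control array (1.40-fold), and the other 3 differed by 0.31, -0.02 and -0.46 on the log2 scale. Overexpression was thus not clearly read, and directions below rest on the labels. The deposited values are linear intensities with medians of 34.25 in the Sox2 array and 34.26 in the control array. Of the 7 epithelial markers, 6 passed the filter described below, while EPCAM read 4.96 in the Sox2 array and 6.32 in the control array. Of the 6 gastric markers 5 passed. Of 6 leukocyte and endothelial markers 3 passed as well, CD3E among them at 82.0 in the Sox2 array and 71.4 in the control array. Passing the filter therefore does not name a cell type. Median intensities past the filter were 68.55 in the Sox2 array and 75.58 in the control array for epithelial markers. For mesenchymal markers they were 290 and 295 in the same order. Of the 6 mesenchymal markers 3 were higher and 3 lower in the Sox2 array, with a median log2 difference of 0.06. VIM, the highest of them, read 5833 in the Sox2 array and 4288 in the control array. The poly-A control transcripts, which are put into a sample in known amount before labelling, were lower in the Sox2 array for 24 of 24 probe sets, with a median log2 difference of -0.75. Scaled on these, every log2 difference given here would be higher by 0.75, and differences between -0.75 and 0 would change sign.

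A synthetase selects its amino acid, activates it with ATP and transfers it to the matching tRNA. Human cells hold separate enzymes for the cytoplasm and for the mitochondrion, where a small set of respiratory chain proteins is made. For most amino acids these come from different genes, but GARS1 and KARS1 each supply both compartments. In the cytoplasm a group of synthetases is held with scaffold proteins in the multisynthetase complex. Synthetases fall into classes I and II by the fold of their catalytic domain. Cells sense uncharged tRNA through the kinase GCN2, which raises translation of ATF4, and many cytoplasmic synthetase genes are ATF4 targets in human cells.

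Synthetases of the multisynthetase complex and the mitochondrial arginine enzyme stood highest in the Sox2 array relative to the control. EPRS1, LARS1, RARS1 and RARS2 were between 2.05-fold and 2.61-fold higher, and KARS1 and FARSB were 1.60-fold higher. None of the 32 was lower by 1.5-fold. Over the cytoplasmic genes past the filter the median log2 difference was 0.42, while the mitochondrial genes were divided, with a median of -0.08. Here RARS1 passed the filter only through the Sox2 array, and the mitochondrial HARS2 and NARS2 only through the control array. Without the filter the 2 medians were 0.32 and 0.03, and with it at the 75th percentile of all values 0.40 and 0.35. No contrast between the groups is therefore read. The cytoplasmic median was 0.18 with the mean of all probe sets of a gene and 0.0852 without the probe sets that can match several transcripts. The brightest probe set by mean log2 intensity stood for each gene. A gene was counted if its higher intensity was at least 34.25, the middle of all values on both arrays. This filter kept 27 of the 32 synthetases and 14253 of all 19775 genes.

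Past 2-fold there were 4 of the 27 with a higher level in the Sox2 array and none with a lower one, where 2.05% of all genes past the filter were 2-fold higher and 0.645% lower. At 1.5-fold, 6 were higher and none lower, against 6.46% and 3.77% of all genes. Without the filter the counts were the same, over all 32 genes. The median log2 difference was 0.32 over the 27 and 0.26 over all 32, beside -0.0032 over all genes past the filter, and 19 of the 27 lay above 0, or 70.4%, beside 49.6% of all genes. Over all genes the counts were 292 higher and 92 lower as deposited and 213 and 117 after quantile normalization, which left 3 synthetases at 2-fold. With the mean of all probe sets of a gene, 1 synthetase was at 2-fold and 3 at 1.5-fold. With the probe sets that can match several transcripts (_x_at and _s_at) left out, 19 synthetases had a value past the filter, RARS1 and RARS2 were at 2-fold, and the median was 0.0415.

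**Figure D1:**
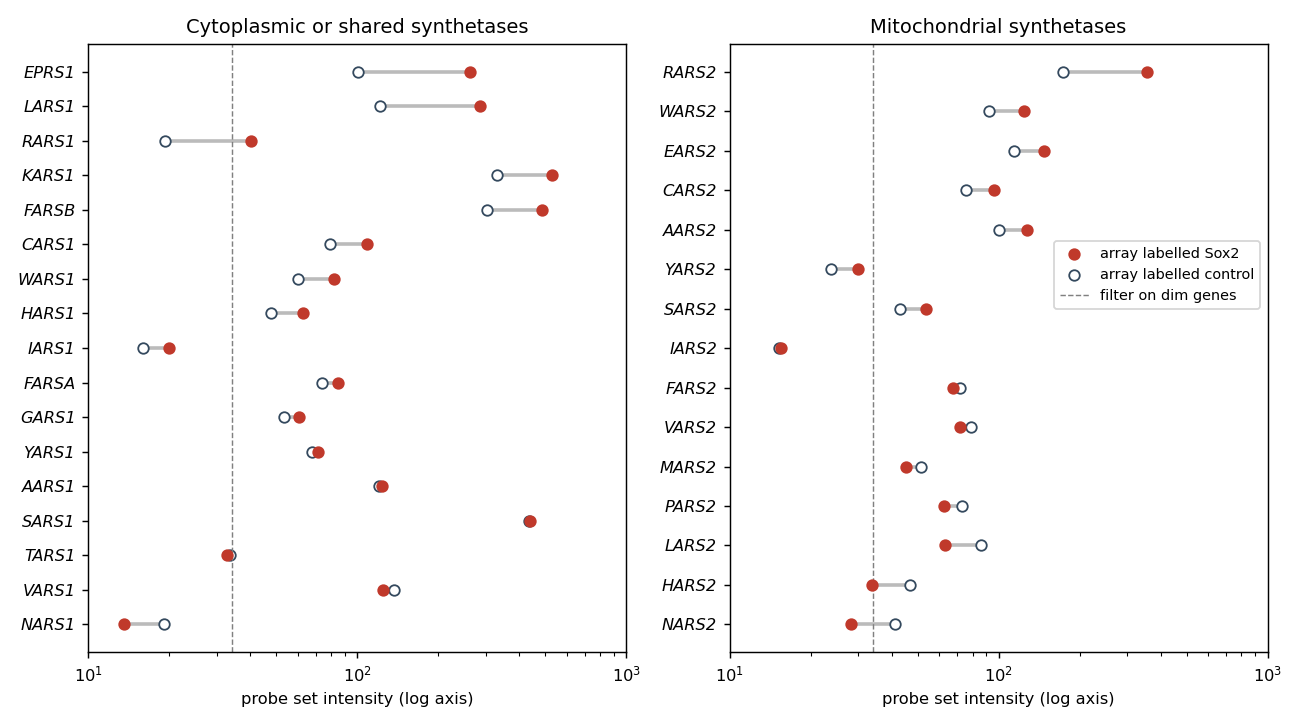
Intensity of each synthetase gene on a log axis in the array labelled Sox2 (filled) and in the array labelled control (open), sorted by difference from the largest at the top, with the cytoplasmic or shared genes on the left and the mitochondrial genes on the right. Among the cytoplasmic genes past the filter (dashed line, 34.25), VARS1 alone read lower in the Sox2 array, while 7 of the 13 mitochondrial genes did. Of these 7, HARS2 and NARS2 passed the filter only through the control array.

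Beside these counts stands the spread between probe sets, the only technical error the data give. Among 3471 genes read by 2 such probe sets, a single one's log2 difference had a robust SD of 0.28. It does not include differences between cultures or between arrays.

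The multisynthetase complex holds 8 synthetases on the list used here, of which 5 had a value and 4 passed the filter. All 4 were at least 1.5-fold higher in the Sox2 array, beside 6.46% of all genes past the filter. Of the 4, 3 were at least 2-fold higher, beside 2.05% of all genes, and the median log2 difference was 1.14. With the mean of all probe sets the median was 0.73, and without the _x_at and _s_at probe sets RARS1 alone kept a value past the filter. KARS1 lay below 1.5-fold with averaged probe sets (0.35), lowess centring (0.57) and quantile normalization (0.43). EPRS1, a fused enzyme that charges both glutamate and proline tRNAs, read 263 in the Sox2 array and 101 in the control array (2.61-fold). It lies at chromosome 1, bases 219968600 to 220046505, in GRCh38.p14. LARS1, the leucine enzyme, which also acts as a leucine sensor for mTORC1, read 285 in the Sox2 array and 122 in the control array (2.34-fold). RARS1, the arginine enzyme, read 40.1 in the Sox2 array and 19.3 in the control array (2.07-fold). It passed the filter only through the Sox2 array, so among genes past the filter it had to differ. KARS1, the lysine enzyme, read 528 in the Sox2 array and 330.2 in the control array (1.60-fold). The isoleucine enzyme IARS1 was under the filter at 19.9 in the Sox2 array and 15.9 in the control array. All 5 members with a value were thus read higher in the Sox2 array, and with IARS1 the median was 1.05. Of the 3 scaffold proteins 1 had a value: AIMP1 read 182 in the Sox2 array and 179 in the control array, a log2 difference of 0.02.

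Outside the complex, 10 of the 12 cytoplasmic synthetases passed the filter, and their median log2 difference was 0.19. FARSB, the beta subunit of the phenylalanine enzyme, was the only one past 1.5-fold, at 485 in the Sox2 array and 304 in the control array (1.60-fold). FARSA, the alpha subunit of the same enzyme, read 84.8 in the Sox2 array and 73.7 in the control array (1.15-fold), and its second probe set read 62.3 and 69.2 in the same order. CARS1, the cysteine enzyme, was the next below at 109 in the Sox2 array and 78.8 in the control array (1.38-fold). Of its further readings, 2 that passed the filter differed by 0.52 and -0.18, and a dim one by -0.39. WARS1, the tryptophan enzyme, which interferon gamma induces in human cells, read 82.0 in the Sox2 array and 60.1 in the control array (1.36-fold). HARS1, for histidine, was 1.32-fold higher, and GARS1, for glycine, 1.13-fold. YARS1, for tyrosine, and AARS1, for alanine, differed by 0.09 and 0.04 on the log2 scale. SARS1, the serine enzyme and one of the pair with the highest intensities among the synthetases beside KARS1, read 437 in the Sox2 array and 435 in the control array, a log2 difference of 0.0043. VARS1, the valine enzyme, which binds elongation factor 1, read 124 in the Sox2 array and 137 in the control array (-0.14). Under the filter, NARS1, for asparagine, read 13.5 in the Sox2 array and 19.1 in the control array. TARS1, for threonine, read 32.9 in the Sox2 array and 33.8 in the control array, and its other probe set, which passed, read 36.5 and 27.0 in the same order.

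The mitochondrial genes lay on both sides of 0. Of 13 past the filter, 6 were higher in the Sox2 array and 7 lower. RARS2, the mitochondrial arginine enzyme, was the only one past 1.5-fold, at 355 in the Sox2 array and 173 in the control array (2.05-fold). It is the nearest to the 2-fold threshold from above, and KARS1 and FARSB are the nearest below it. The other genes read higher were WARS2 (1.35-fold), EARS2 for glutamate (1.29-fold), CARS2 and AARS2 (1.27-fold each) and SARS2 (1.25-fold). The lowest difference was that of NARS2, the asparagine enzyme, at 28.4 in the Sox2 array and 41.2 in the control array (-0.54). HARS2, the histidine enzyme, read 33.8 in the Sox2 array and 46.9 in the control array (-0.47). These 2 passed the filter only through the control array. LARS2, the leucine enzyme, read 63.3 in the Sox2 array and 86.3 in the control array (-0.45). PARS2 for proline, MARS2 for methionine, VARS2 and FARS2 differed by -0.23, -0.19, -0.14 and -0.08. IARS2, one of the dimmest with NARS1, read 15.5 in the Sox2 array and 15.2 in the control array, and YARS2 read 30.0 and 23.8, both under the filter.

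The mitochondrial median turned with the filter: it was 0.03 over all 15 genes and 0.35 over the 9 past a filter at the 75th percentile of all values. Among the 13 past the main filter, HARS2 and NARS2 passed only through the control array. The sign of the median therefore carries no direction for the group.

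For 11 amino acids the list holds a cytoplasmic gene ending in 1 and a mitochondrial gene ending in 2, and in 8 of these pairs both passed the filter. In 6 of the 8 both genes lay on the same side of 0, and in 2 they lay on opposite sides. No like share over all genes was computed, so nothing is read from this count. In the pairs on the same side, SARS1 at 0.0043 and AARS1 at 0.0415 lay close to 0. RARS1 and RARS2 differed by 1.05 and 1.03, though RARS1 passed the filter only through the Sox2 array. WARS1 and WARS2 differed by 0.45 and 0.43, and VARS1 and VARS2 by -0.14 and -0.14. The leucine pair went apart, with LARS1 at 1.23 and LARS2 at -0.45, a gap of 1.67. So did the histidine pair, with HARS1 at 0.40 and HARS2 at -0.47, a gap of 0.87, though HARS2 passed the filter only through the control array. EPRS1, at 1.38, stands opposite 2 mitochondrial enzymes, EARS2 at 0.37 and PARS2 at -0.23.

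**Figure D2:**
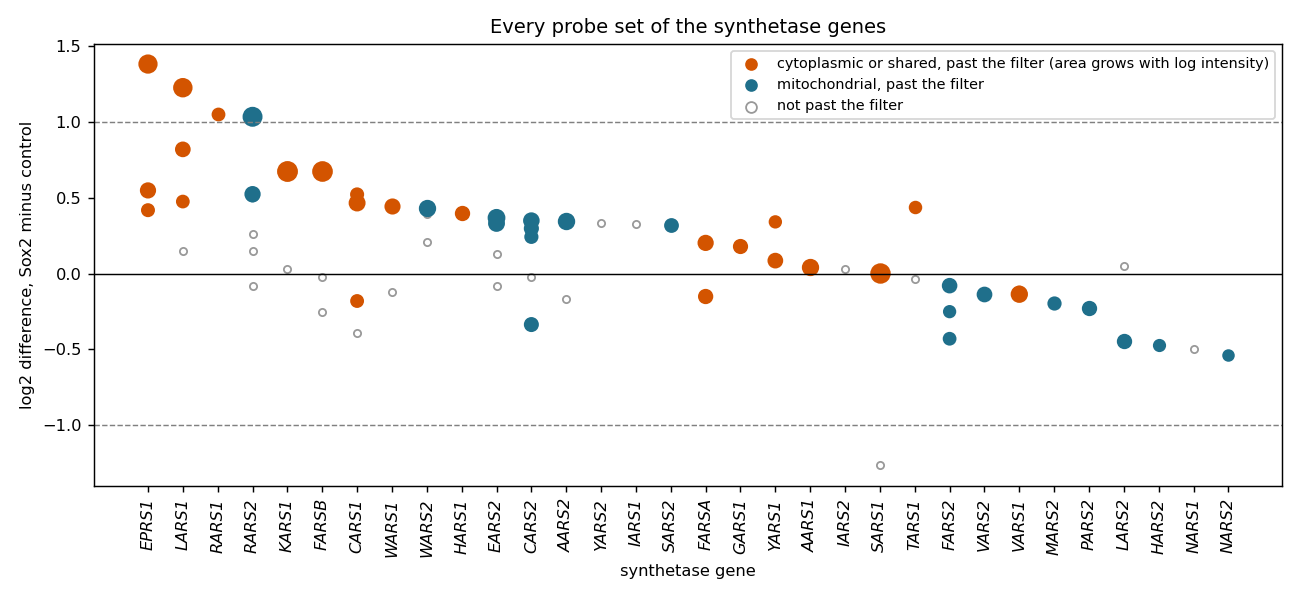
Log2 difference of every probe set of each synthetase gene, Sox2 minus control, with genes ordered by the difference of the probe set that stands for them. Filled points passed the filter and grow with intensity, open points did not, and dashed lines mark 2-fold. The 3 probe sets past the filter of EPRS1, of LARS1 and of RARS2 all lie above 0, and those of CARS2 lie on both sides.

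Other probe sets of a gene give a further reading of it. Of the 67 probe sets 45 passed the filter, and 31 of these, 68.9%, lay above 0, beside 11473 of the 22938 probe sets past the filter that list 1 gene. For EPRS1 the other 2 past the filter read 84.4 and 41.9 in the Sox2 array, against 57.7 and 31.4 in the control array, differences of 0.55 and 0.42. For LARS1 they read 71.1 and 39.3 in the Sox2 array, against 40.3 and 28.3 in the control array, differences of 0.82 and 0.48. For RARS2 they differed by 0.52 each. In all 3 genes every probe set past the filter was thus read higher in the Sox2 array, but only the one with the highest intensity reached 2-fold. RARS1 has a single probe set. The second probe set of KARS1 read 8.32 in the Sox2 array and 8.15 in the control array, and those of FARSB 13.2 and 8.16 in the Sox2 array, against 15.7 and 8.29 in the control array, all under the filter.

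Among 192 genes of the whole array at least 2-fold higher with other probe sets past the filter, all of these lay above 0 in 57.8%, and among 2673 genes above 0 but under 2-fold, in 41.5%. Of the 10 synthetases for which more than 1 passed, 7 had all such readings on 1 side of 0. This counts either side, with FARS2 and VARS1 below 0, so it is not comparable with the 2 shares before it. No share counted in this way was computed over all genes, so nothing is read from the 7. CARS2 was the 1 with probe sets past the filter more than 0.3 from 0 on both sides: its highest read 96.0 in the Sox2 array and 75.4 in the control array, and another 57.5 and 72.6 in the same order. A dim probe set of SARS1 read 5.40 in the Sox2 array and 13.0 in the control array.

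Level and gene length were weakly correlated with the differences over all genes past the filter. Bright genes were more often higher in the Sox2 array, and shares of lower genes were not counted by level. The 1399 genes with a mean intensity of 200 or more had a median log2 difference of 0.12. Of these 1399 genes, 10.9% were 2-fold higher and 26.4% were 1.5-fold higher. Of the 4 synthetases in that range, RARS2 was 2-fold higher, KARS1 and FARSB passed 1.5-fold, and SARS1 did not differ by either. Between 100 and 200, where 2.43% of 2549 genes were 2-fold and 7.45% 1.5-fold higher, EPRS1 and LARS1 passed both, of 7 synthetases. Under 50 the share was 0.627%. The 5 synthetases there include RARS1, which was 2-fold higher and passed the filter only through the Sox2 array, and HARS2 and NARS2, which passed only through the control array, so nothing is read from their count. Between 50 and 100 the share was 0.844%, and none of 11 synthetases passed. At 1.5-fold these shares were 3.59% under 50, with RARS1 again, and 3.46% between 50 and 100, with none. Across the 27 synthetases, which share the same 2 arrays, the log2 difference correlated with the mean log2 level at a Pearson r of 0.41, beside 0.12 across all genes past the filter. The 27 include RARS1, HARS2 and NARS2, each past the filter through 1 array only, so no stronger trend is read from this. With the log of genomic length r was 0.21, beside 0.16 across 14231 genes with a length. The 6 synthetases past 1.5-fold had a median genomic length of 72833.5 bases, against 36622 for the other 21 and 24437 for all genes past the filter. With a trend on length removed EPRS1 differed by 1.35, LARS1 by 1.19 and RARS2 by 0.9985, which is just under 2-fold, and with lowess centring on level they differed by 1.36, 1.19 and 0.97.

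**Figure D3:**
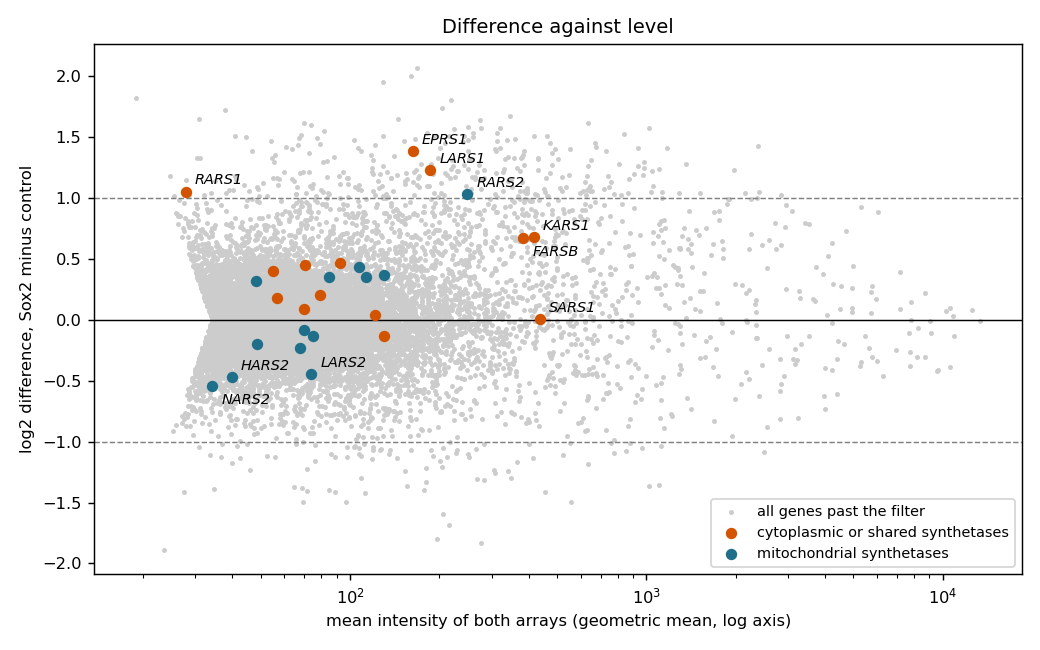
Log2 difference, Sox2 minus control, against the geometric mean intensity of both arrays (log axis) for the 14253 genes past the filter (grey) and for the cytoplasmic or shared (orange) and mitochondrial (blue) synthetases among them. Dashed lines mark 2-fold. EPRS1, LARS1, RARS1 and RARS2 lie above the upper dashed line, and SARS1 lies at 0 beside the bright KARS1 and FARSB.

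The DNA before the starts of these genes is shown because members that differed together, and a pair that shares 1 promoter region but went apart, can be set beside it. Sequences are from RefSeq (GRCh38.p14), where 27 of the 32 genes had a window of 250 bases before to 50 after a start. LARS1, AARS2, VARS1, VARS2 and YARS1 had none. The windows were searched on both strands for 3 motifs: TGATGNAA, a core of the composite site of C/EBP and ATF factors through which ATF4 acts, CCGGAAG, an ETS core, and ACAATG, a SOX core. The 250 bases before the start are given 5′ to 3′ on the gene's strand, with motif matches in capitals.

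EPRS1, chr1:220046506-220046755, minus strand: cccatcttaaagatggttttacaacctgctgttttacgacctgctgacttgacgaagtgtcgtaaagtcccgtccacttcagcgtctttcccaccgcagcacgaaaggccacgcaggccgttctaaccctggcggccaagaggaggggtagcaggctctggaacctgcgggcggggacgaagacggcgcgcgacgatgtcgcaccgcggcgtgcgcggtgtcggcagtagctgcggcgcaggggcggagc
RARS1, chr5:168486221-168486470, plus strand: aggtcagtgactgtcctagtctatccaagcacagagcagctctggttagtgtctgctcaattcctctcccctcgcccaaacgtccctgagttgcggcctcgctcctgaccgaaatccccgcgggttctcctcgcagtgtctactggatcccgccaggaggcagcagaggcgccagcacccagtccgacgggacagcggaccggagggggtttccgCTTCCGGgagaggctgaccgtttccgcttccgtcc
RARS2, chr6:87589988-87590237, minus strand: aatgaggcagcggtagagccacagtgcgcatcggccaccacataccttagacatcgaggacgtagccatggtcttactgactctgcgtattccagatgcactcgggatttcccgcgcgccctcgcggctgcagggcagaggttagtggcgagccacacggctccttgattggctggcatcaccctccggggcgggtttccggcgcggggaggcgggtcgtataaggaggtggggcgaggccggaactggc
KARS1, chr16:75647666-75647915, minus strand: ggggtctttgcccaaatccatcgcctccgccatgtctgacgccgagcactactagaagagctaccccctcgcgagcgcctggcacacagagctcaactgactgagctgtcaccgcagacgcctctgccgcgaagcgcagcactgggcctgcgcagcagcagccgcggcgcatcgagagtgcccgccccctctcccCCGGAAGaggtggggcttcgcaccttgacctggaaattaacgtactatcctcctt
AARS1, chr16:70289507-70289756, minus strand: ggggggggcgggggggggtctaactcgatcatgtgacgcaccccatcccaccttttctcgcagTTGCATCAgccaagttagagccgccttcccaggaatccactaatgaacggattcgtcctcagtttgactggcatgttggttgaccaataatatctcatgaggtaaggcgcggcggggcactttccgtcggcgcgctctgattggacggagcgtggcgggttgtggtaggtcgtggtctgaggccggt

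The capitals are the ETS core, on either strand, in RARS1 and KARS1 and the C/EBP-ATF core, as its reverse complement, in AARS1. No motif searched lies in the EPRS1 or RARS2 window. The C/EBP-ATF core was held by 7 of the 27 synthetase genes with a window, or 25.9%, beside 4.46% of all 27305 genes with a window. They were AARS1, CARS1, GARS1, IARS1, NARS1, TARS1 and YARS2. AARS1, CARS1 and GARS1 passed the filter, with log2 differences of 0.04, 0.47 and 0.18, and none of the 5 genes past 1.5-fold with a window holds it. The ETS core was held by 15 of 27, or 55.6%, beside 12.2% of all genes. Of these 15 genes 13 passed the filter, and they differed by -0.47 to 1.05 with a median of 0.35. The SOX core was held by 2 of 27, CARS2 and FARSB, or 7.41%, beside 13.0% of all genes. These are matches of letters, not sites shown to be bound.

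HARS1 and HARS2 lie head to head on chromosome 5, with their annotated starts 84 bases apart. That stretch, on the strand of HARS2, holds an ETS core near each end.

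HARS1-HARS2, chr5:140691371-140691454, plus strand: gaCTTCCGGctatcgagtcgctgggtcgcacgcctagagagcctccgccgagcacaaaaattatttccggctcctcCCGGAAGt

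From the 2 sides of this stretch HARS1 read 62.9 in the Sox2 array and 47.7 in the control array, and HARS2 33.8 and 46.9 in the same order, each by a single probe set.

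By class, 13 genes of class I and 13 of class II passed the filter, beside EPRS1, which holds a domain of each. In class I 3 were 2-fold higher, with a median log2 difference of 0.37, and in class II none was, with a median of 0.18. LARS1, RARS1 and RARS2 are the class I genes, and KARS1 and FARSB the 2 class II genes past 1.5-fold. RARS1 passed the filter only through the Sox2 array. Of all genes past the filter 2.05% were 2-fold higher and 6.46% were 1.5-fold higher.

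Related genes were counted in the same way, and lists this short with none at 2-fold lie near the 2.05% higher and 0.645% lower of all genes. At 1.5-fold the shares of all genes were 6.46% higher and 3.77% lower. Among accessory factors, which edit charged tRNA or complete it in mitochondria, none of 5 past the filter reached 1.5-fold, and QRSL1, a subunit of the mitochondrial amidotransferase that forms glutaminyl-tRNA, differed most at 67.9 in the Sox2 array and 55.4 in the control array. Their median log2 difference was 0.03. Among 15 genes of tRNA maturation and export, none was 1.5-fold higher and 2 were 1.5-fold lower, with a median of -0.02. POP4 and POP5, subunits of RNase P, which trims the 5′ end of tRNA, read 48.6 and 37.1 in the Sox2 array, against 88.0 and 62.2 in the control array. Of 4 factors that deliver charged tRNA to the ribosome, none reached 1.5-fold. EEF1A1, which carries it in the cytoplasm, read 10957 in the Sox2 array and 10700.1 in the control array, and TUFM, its mitochondrial counterpart, which differed most, 112 and 127 in the same order. The 4 had a median of -0.14.

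The response to uncharged tRNA was followed as well. Of 6 sensing genes 3 passed the filter, with none at 1.5-fold. EIF2S1, the alpha subunit of the initiation factor that GCN2 phosphorylates, read 183 in the Sox2 array and 135 in the control array. GCN1, which activates GCN2, read 148 and 116 in the same order. Another probe set of each gene past the filter differed by only 0.1 for EIF2S1 and 0.06 for GCN1. EIF2AK4, which encodes GCN2, was under the filter, with a log2 difference of 0.83. Of 26 genes of the ATF4 and amino acid response, 21 passed the filter, with none 1.5-fold higher, 3 lower by 1.5-fold and none by 2-fold. Over all genes past the filter 6.46% were 1.5-fold higher and 3.77% were 1.5-fold lower. The 21 had a median log2 difference of 0.02. CEBPB, a transcription factor that pairs with ATF4, differed most, at 182 in the Sox2 array and 311 in the control array (-0.77). PCK2, a mitochondrial carboxykinase, read 95.5 in the Sox2 array and 147 in the control array, and TRIB3, a pseudokinase, 106 and 160.4 in the same order, while its other probe set differed by 0.014. ATF4 itself read 173 in the Sox2 array and 198 in the control array. ASNS, asparagine synthetase, was under the filter at 14.8 in the Sox2 array and 12.9 in the control array. The highest of the 21 was ATF3, a stress-induced factor of the ATF family, at 173 in the Sox2 array and 124 in the control array (0.48).

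**Figure D4:**
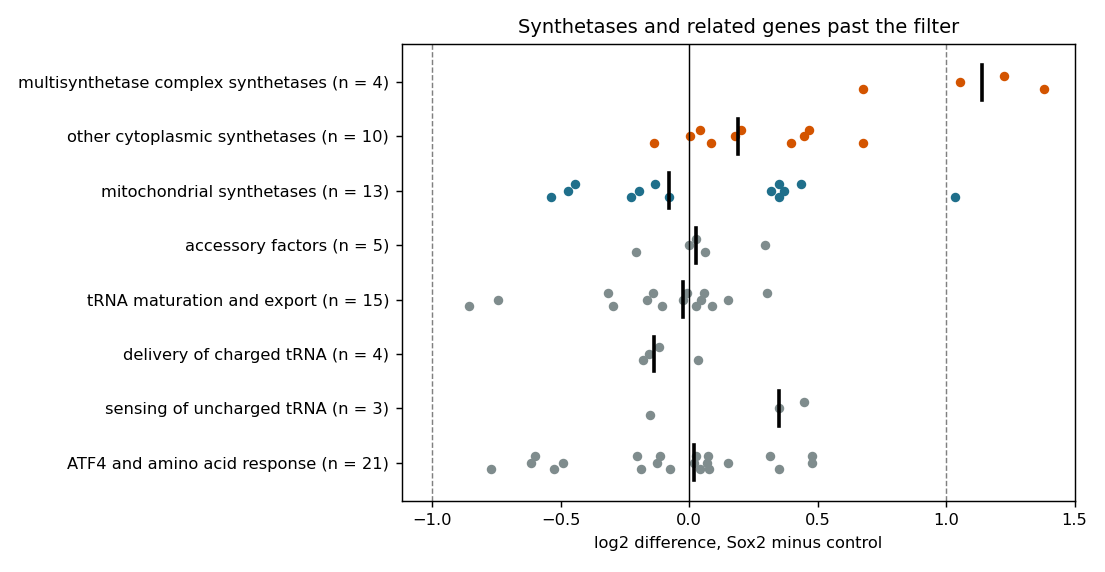
Log2 difference, Sox2 minus control, of each gene past the filter in 8 groups, with the number of genes beside each name. Points are genes, black bars are medians and dashed lines mark 2-fold. The 4 synthetases of the multisynthetase complex have a median of 1.14, the other cytoplasmic synthetases 0.19, and the ATF4 and amino acid response genes 0.02.

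The 5 probe sets that list a synthetase and a microRNA gene were assigned to neither. The 4 past the filter differed by 0.05 to 0.28.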

How the data were processed

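Per the labels, biotinylated cRNA from Trizol-extracted RNA was hybridised to 1 Affymetrix array for each of the 2 samples. The submitters' processing notes name RMA and no other tool, without a version or settings. The authors deposited 1 linear intensity for each probe set, from 1 to 19811 in the Sox2 array and to 19501 in the control array. Once sorted, the 2 columns differed by up to 1585, so they do not share 1 distribution and the last processing step is unknown. Without probe-level data no detection call could be made.

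Intensities were taken to log2 as they stood, since their median difference was already close to 0 (-0.0027), and the deposited values cannot show a change in total RNA. Symbols came from the platform annotation, updated through the RefSeq gene table, where 19735 of 19777 identifiers matched. Exactly 1 gene was listed for 41091 probe sets. Genes were counted at fixed sizes of 2-fold and 1.5-fold, with no p-value. The members, gene lists, sizes and alternatives were chosen with earlier results of these data known. Named with values are synthetases 1.5-fold apart, nearest to 2-fold, brightest, dimmest or with conflicting probe sets, and of each related list up to 4 members 2-fold apart or else the most different one. Others named, such as ATF4, ASNS, PCK2, TRIB3, POP5, LARS2, HARS1 and HARS2, were chosen after their values were seen. The counting was tested on simulated data. The number of arrays limits the precision. Python 3.11.15, numpy 2.4.6, pandas 2.3.3, SciPy 1.17.1, statsmodels 0.14.6 and matplotlib 3.10.9 were used.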

Additional observations from a re-analysis of the deposited data

How the results depend on the processing

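No paired analysis was possible because each condition has 1 array. Alternatives covered the probe set, the filter, median, lowess (span 0.3) and quantile scaling and the fold, with a genomic length trend added after seeing the data. The 4 synthetases at 2-fold became 1 (RARS1) with the mean of all probe sets, 2 (RARS1 and RARS2) when _x_at and _s_at probe sets were left out, which leaves EPRS1, LARS1, KARS1 and FARSB with no value past the filter, and 0 at 3-fold. The 6 at 1.5-fold became 3 (EPRS1, LARS1 and RARS1) and 2 under those probe set choices. SARS1 became 1.5-fold lower with averaging (-0.63), through its dim probe set, and NARS2 with the length trend removed (-0.59), 1 gene each time. The median over all synthetases was 0.0415, and over cytoplasmic ones 0.0852, without those probe sets. The mitochondrial median was 0.35 with the filter at the 75th percentile. The median of the multisynthetase complex was 0.73 with averaged probe sets, where EPRS1 differed by 0.78, LARS1 by 0.67, RARS2 by 0.40, KARS1 by 0.35 and FARSB by 0.13. With lowess centring and with quantile normalization 3 synthetases stayed at 2-fold (EPRS1, LARS1 and RARS1) and 4 at 1.5-fold. KARS1 and FARSB lay below 1.5-fold there, at 0.57 and 0.57 with lowess and 0.43 and 0.45 with quantile normalization. No alternative made EPRS1, LARS1, RARS1, RARS2, KARS1 or FARSB lower where they had a value. Over all genes, averaging left 63 higher and 43 lower, 59.4% higher, against 292 and 92, 76.0% higher. Quantile normalization gave 64.5% higher, leaving out the _x_at and _s_at probe sets 172 and 61, no filter 379 and 177, and the 3-fold threshold 14 and 5. Signal over background is unknown, which limits dim genes most.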
